A study of Mus musculus with 24 samples.

Results

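Vesicle release and calcium sensor genes were taken as the protein-coding genes whose symbols begin with Syt, Cplx, Cpne, Vamp, Stxbp or Rims followed by a digit, or with Unc13 or Doc2 followed by a letter. The rule used names alone and found 56 of the 33364 genes in the count tables: 17 synaptotagmins, 9 copines, 8 Vamp genes, 7 syntaxin binding protein genes, 4 complexins, 4 Rims genes, 4 Unc13 genes and 3 Doc2 genes. RNA was sequenced from 2 regions of the frontal cortex, mPFC (medial prefrontal) and ACC (anterior cingulate), of C57BL/6 mice. The study's methods give the strain as C57BL/6J. The mice were given as 3 months of age, and tissue was taken 2 weeks after surgery for spared nerve injury (SNI) or a sham operation. In SNI the common peroneal and sural branches of the sciatic nerve are cut and the tibial branch is left whole, which gives lasting neuropathic pain, while in sham mice all of these branches stayed whole. The 8 groups were female sham, female SNI, male sham and male SNI mice in each of the 2 regions, with 3 libraries per group (24 in total), and 4 to 5 animals were pooled for every library. Each value is that of a pool, so p-values measure the spread between pools, and the labels do not say whether the mPFC and ACC pools came from the same animals.

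When an action potential opens calcium channels at a nerve terminal, calcium binds the C2 domains of a synaptotagmin on the vesicle, and the SNARE complex of Vamp, syntaxin and SNAP-25 proteins pulls the vesicle and plasma membranes together. Unc13 proteins prepare the SNAREs, Rims proteins hold vesicles beside the calcium channels, and complexins clamp and assist the assembled complex. Cortical neurons differ in the isoforms they use: Syt1 is the fast sensor of most forebrain terminals, while Syt2 is known from fast-spiking parvalbumin interneurons. Copines are cytosolic proteins with paired C2 domains that move to membranes when calcium rises, and most have no settled part in release.

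Library totals lay between 23853845 and 32864391 counted reads (median 26727282). Defining markers of cortical tissue were high in every library: the glutamate transporter gene Slc17a7 lay between 1445 and 1974 counts per 1000000 (CPM) and Gad1, the GABA synthesis gene, between 249 and 381 CPM. Certain libraries stood apart in markers of other cells. Female sham ACC replicate 1 held 937.5 CPM of choroid plexus markers and male SNI mPFC replicate 2 held 80.2 CPM, against 2.94 to 9.87 CPM in the others. For oligodendrocytes, female SNI mPFC replicate 1 held 1124 CPM of markers against 2028 to 4271 CPM in the others. Over all genes, female sham mPFC replicate 3 and male sham ACC replicate 3 stood apart from the other replicates of their groups. The chi-square per gene between replicates was 13.7 to 14.0 for the first and 17.3 to 19.9 for the second, against 2.67 to 10.6 for all other pairs of replicates.

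The sequences in front of 5 genes that were called between the regions are shown first, because the first 3 of these genes rise together toward the ACC in the results and the other 2 toward the mPFC. Start sites are those of RefSeq on GRCm38.p6, whose table holds 37 of the 56 genes with 45 start sites. Each sequence is the 250 bases before a start, on the strand of the gene. Capitals mark, on either strand, GGGCGG (the GC box), CCAAT (bound by NF-Y), TATAAA (the TATA box), TGACGTCA (the cAMP response element) and AAGGTCA (a nuclear receptor motif), and no match overlaps another in these sequences. Syt2 (chr1:134646362-134646611, plus strand), Vamp1 (chr6:125215331-125215580, plus strand) and Cplx1 (chr5:108550028-108550277, minus strand) were higher in the ACC, and Syt10 (chr15:89841861-89842110, minus strand) and Syt9 (chr7:107370540-107370789, plus strand) in the mPFC.
Syt2: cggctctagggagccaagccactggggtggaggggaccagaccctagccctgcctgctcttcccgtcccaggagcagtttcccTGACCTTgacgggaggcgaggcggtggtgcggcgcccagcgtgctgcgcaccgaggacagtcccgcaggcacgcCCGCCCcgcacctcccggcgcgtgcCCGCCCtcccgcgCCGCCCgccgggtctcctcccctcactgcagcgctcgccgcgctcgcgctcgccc
Vamp1: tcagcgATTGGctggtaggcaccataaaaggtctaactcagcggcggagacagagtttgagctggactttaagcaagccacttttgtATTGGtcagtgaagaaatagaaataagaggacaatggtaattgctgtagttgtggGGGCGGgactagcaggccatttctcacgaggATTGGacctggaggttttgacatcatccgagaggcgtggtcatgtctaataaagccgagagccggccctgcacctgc
Cplx1: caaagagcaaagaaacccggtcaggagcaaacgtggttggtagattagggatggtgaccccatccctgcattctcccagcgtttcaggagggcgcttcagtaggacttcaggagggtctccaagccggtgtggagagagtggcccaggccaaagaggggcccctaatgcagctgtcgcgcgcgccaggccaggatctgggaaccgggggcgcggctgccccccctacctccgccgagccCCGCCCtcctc
Syt10: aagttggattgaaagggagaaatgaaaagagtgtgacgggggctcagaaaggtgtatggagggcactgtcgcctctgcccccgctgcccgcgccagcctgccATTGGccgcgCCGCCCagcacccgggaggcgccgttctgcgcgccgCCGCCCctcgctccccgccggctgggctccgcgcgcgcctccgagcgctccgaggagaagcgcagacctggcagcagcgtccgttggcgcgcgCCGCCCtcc
Syt9: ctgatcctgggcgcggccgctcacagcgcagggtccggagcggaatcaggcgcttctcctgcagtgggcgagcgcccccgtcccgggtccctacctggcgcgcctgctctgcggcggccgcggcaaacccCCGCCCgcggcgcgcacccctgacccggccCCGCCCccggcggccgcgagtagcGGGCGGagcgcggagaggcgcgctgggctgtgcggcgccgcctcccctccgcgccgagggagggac

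GGGCGG was found before 30 of the 45 start sites (66.7%) and before 32.7% of all 32851 start sites in the table. CCAAT stood before 28.9% of the release gene starts and 33.8% of all starts, TGACGTCA before 2.22% and 1.55%, and AAGGTCA before 6.67% and 4.08%. TATAAA stood before 0 of 45 starts and before 12.4% of all starts. The table holds 2 start sites of Syt2, and the sequence shown is that of start 1, with 1 AAGGTCA and 0 CCAAT, while that of start 2 (chr1:134709050-134709299) held 0 AAGGTCA and 1 CCAAT. These shares and matches describe the letters only, and the 3 sequences of Syt2, Vamp1 and Cplx1 shown held no motif of these 5 in common other than GGGCGG. The study's supplement lists a primer pair for quantitative PCR of Syt2, shown because it marks a stretch of the transcript that can be checked apart from the counts, and the pair matches Syt2 and no other annotated gene. They bound a product of 241 bases on the plus strand of chromosome 1 (chr1:134743577-134744403, GRCm38, GENCODE release 21), from exon 5 to the junction of exons 6 and 7 in 1 of the 2 transcripts that hold both primers. The counts of Syt2 here come from all of its exons. The study ran its quantitative PCR on RNA of individual mice, separate from the sequenced pools.
Syt2 forward primer: AGAACCTGGGCAAATTGCAGT
Syt2 reverse primer: CCTAACTCCTGGTATGGCACC

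Of the 56 genes, 53 had enough counts to be tested in every comparison. Cplx4, Syt8 and Vamp9 had 0 to 3 counts in each library, so the filter on low counts left them out of these tests. Levels are compared between genes per kilobase of exon, as the median of the 24 libraries. Vamp2, the main synaptobrevin of the forebrain, was highest at 282 CPM per kb, and others at a high level were Cplx1 at 222, Syt1 at 220.3, Cplx2 at 209 and Syt11 at 178 CPM per kb. Below these came Syt13 at 78.9 and Syt5 at 70.5 CPM per kb. Among the genes described in detail, Unc13a stood at 40.9, Doc2a at 26.4, Syt17 at 13.3, Cpne7 at 7.04, Cpne9 at 5.5, Syt2 at 5.49 and Syt6 at 3.76 CPM per kb. Doc2g, Vamp5, Unc13d and Syt15 were tested but lay below 1 CPM per kb. In the plot of levels the synaptotagmins span from 0.172 (Syt15) to 220.3 CPM per kb (Syt1) while the 4 Rims genes lie between 10.2 and 41.4 CPM per kb, and the ranges of the regions lie apart for 12 of the 53 genes.

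**Figure D1:**
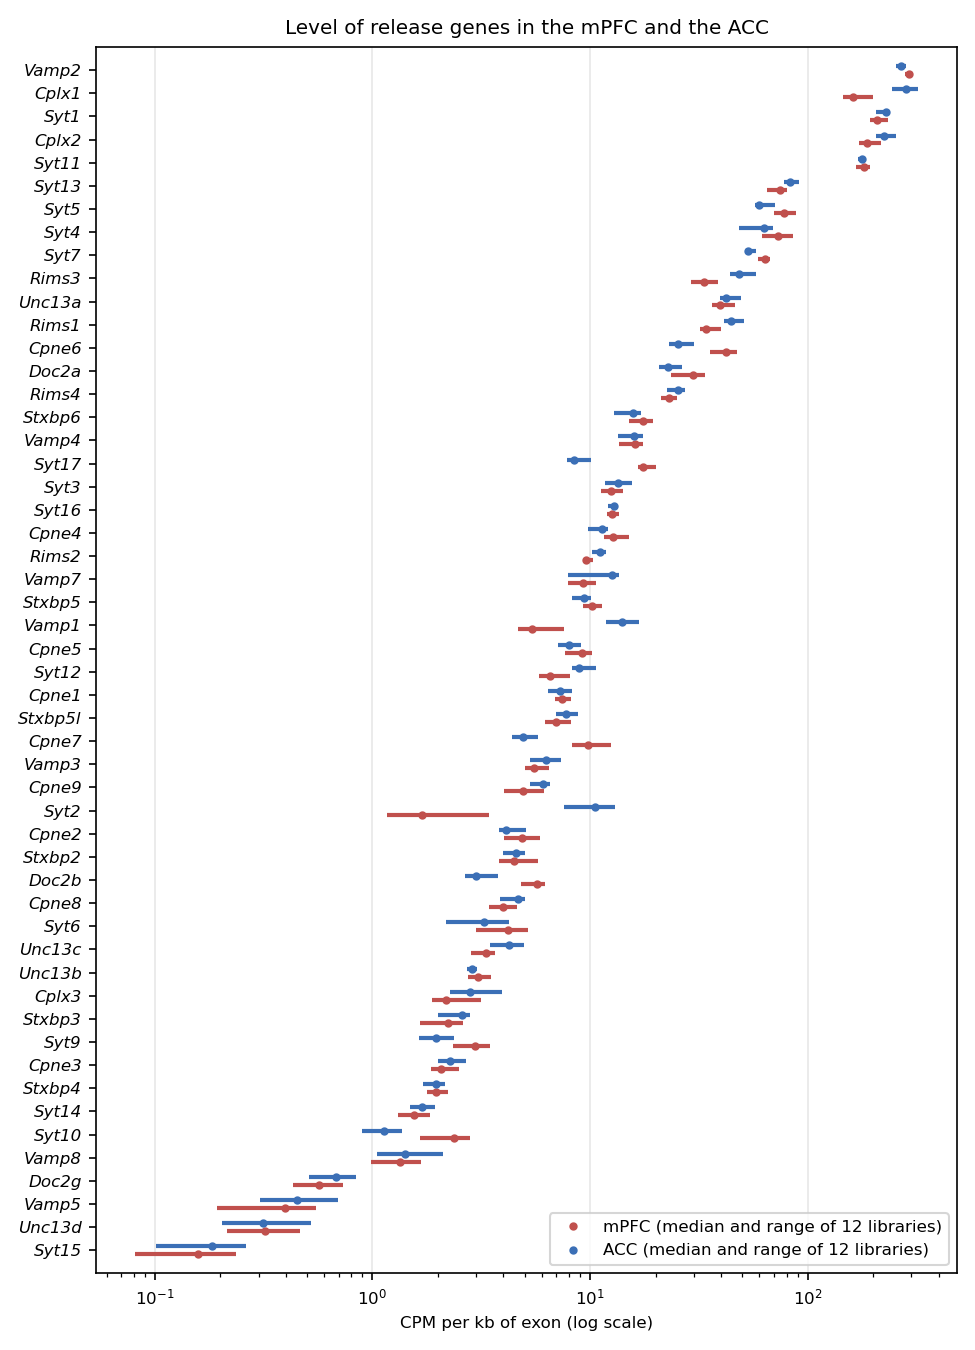
Level of release genes with a median above 0.1 CPM per kb of exon, on a log axis, in the mPFC (red) and the ACC (blue); dots are medians and bars the range of 12 libraries. Vamp2 is highest, and Syt2, Vamp1, Syt17, Cpne7 and Doc2b are among the genes whose bars do not overlap.

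The first comparison asked how the release genes differ between the mPFC and the ACC. The mPFC had fewer Syt2, Vamp1 and Cplx1 transcripts than the ACC and more Syt17, Syt10, Cpne7, Doc2b and Cpne6. With all 24 libraries in one fit, 42 of 53 genes differed between the regions at an FDR under 0.1 (edgeR's quasi-likelihood test with Benjamini-Hochberg adjustment), of which 18 were higher in the mPFC (24.3% of all genes) and 24 higher in the ACC (24.7% of all genes). The share over all genes tested was 49% for both directions together, and the share among the release genes was 79.2%. The median log2 fold change, mPFC against ACC, was -0.09 over the 53 genes and 0.0034 over all genes. A difference of 2-fold or more was found for Syt2, Vamp1 and Syt17, 3 genes, and for 1.79% of all genes.

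**Figure D2:**
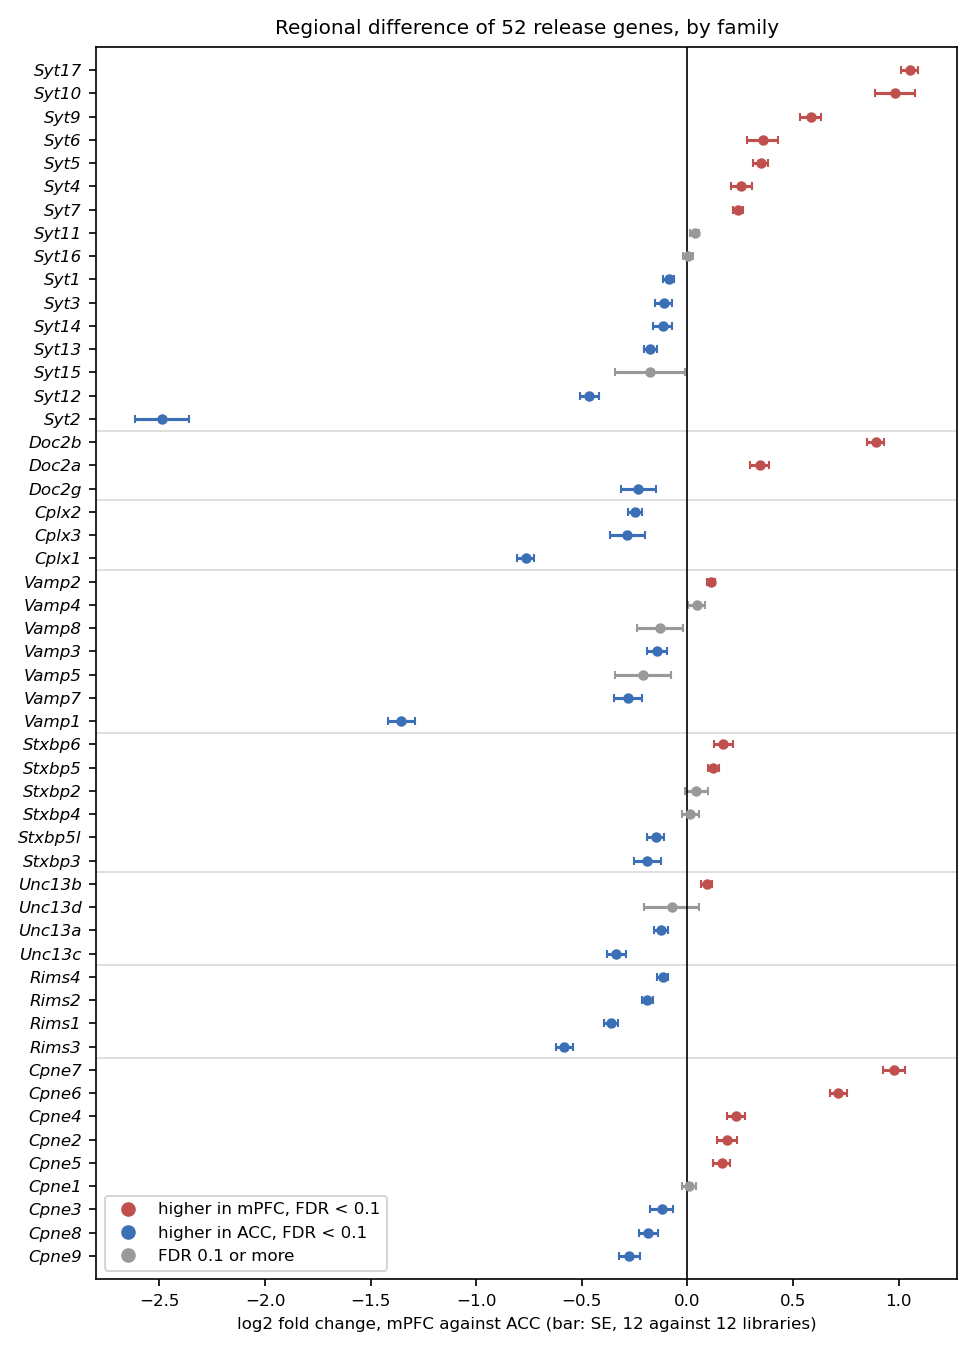
Log2 fold change, mPFC against ACC, of the release genes tested, grouped by family, with the SE of the fit over 12 against 12 libraries. All 4 Rims genes and all 3 complexins tested lie on the ACC side, and Syt2 lies farthest from 0 at -2.49.

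The regional difference had the same sign in all 4 pairings of sex and treatment for 36 of 53 genes (67.9%), against 47.2% of all genes. In the 4 separate comparisons of 3 against 3 libraries, 26 genes were called in female sham, 32 in female SNI, 21 in male sham and 29 in male SNI mice, where the shares over all genes were 28.5%, 27.6%, 14.2% and 21%. Leaving out female sham mPFC replicate 3 gave 34 calls in female sham mice (41.5% of all genes), and leaving out male sham ACC replicate 3 gave 30 in male sham mice (27%). Of the 53 genes, 16 were called in the same direction in all 4 (30.2%, against 7.16% of all genes). These 16 were Syt17, Syt10, Syt9, Syt5, Syt7, Doc2b, Doc2a, Cpne7 and Cpne6 in the mPFC, and Syt2, Syt12, Vamp1, Cplx1, Rims1, Rims3 and Unc13c in the ACC. When each library was left out in turn, 10 of the 16 kept their call in every run. Doc2a lost its call in male sham mice without any of 4 of the 6 libraries (adjusted p = 0.152 to 0.263), Syt7 in 4 (0.156 to 0.194) and Syt5 in 2 (0.122 to 0.126), and in female sham mice Syt12 and Unc13c lost theirs in 3 runs each (0.102 to 0.143 and 0.105 to 0.224) and Rims1 in 2 (0.153 to 0.189). For 12 genes the 12 libraries of one region all lay above the 12 of the other, 6 in each direction, and this held for 4.87% of all genes.

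Synaptotagmins were split between the regions: of 16 tested, 7 were higher in the mPFC, 6 were higher in the ACC and 3 were not called. Syt2 lies at chr1:134646677-134762593 on the plus strand of GRCm38. In the mPFC it was counted at 26.1, 12 and 11.4 CPM in female sham, 13.2, 9.8 and 14.0 CPM in female SNI, 20.04, 12.7 and 8.87 CPM in male sham and 15.1, 11.1 and 15.7 CPM in male SNI mice. In the ACC the values were 57.8, 74.8 and 64.9 CPM in female sham, 99.4, 84.6 and 76.5 CPM in female SNI, 86.6, 76.2 and 87.2 CPM in male sham and 86.4, 61.7 and 98.3 CPM in male SNI mice. Every ACC library was above every mPFC library, and the highest mPFC values were those of the first sham library of each sex. Syt2 was 5.61-fold higher in the ACC (log2 fold change, mPFC against ACC, -2.49, SE 0.13, adjusted p = 2.72e-13; SE is the standard error of the fit), and the separate differences ran from -2.81 in female SNI to -1.99 in female sham mice.

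Syt1, Syt2 and Syt9 are the sensors that can drive fast release. Per kilobase of exon, Syt2 made up 0.514% to 1.7% with a median of 0.751% of the transcripts of these 3 genes in the 12 mPFC libraries, and 3.2% to 5.56% with a median of 4.29% in the 12 ACC libraries. Syt1 held nearly all of the rest and differed little, from 1621 to 1952 CPM with a median of 1730 in the mPFC to 1718 to 1966 CPM with a median of 1907 in the ACC (log2 fold change -0.09, SE 0.027, adjusted p = 0.0105, and -0.04 with an adjusted p of 0.142 after a correction for GC content). Syt9 went the other way, with 9.34 to 13.8 CPM with a median of 11.8 in the mPFC and 6.53 to 9.42 CPM with a median of 7.8 in the ACC, ranges that overlapped (0.58, SE 0.050, adjusted p = 1.31e-09). Its share of the 3 sensors was 1.13% to 1.72% with a median of 1.33% in the mPFC and 0.672% to 1.02% with a median of 0.833% in the ACC.

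Syt17, a synaptotagmin relative without a transmembrane segment, was higher in the mPFC. Its locus is chr7:118380717-118448222 (minus strand). The mPFC libraries had 87.0, 105 and 90.1 CPM in female sham, 92.0, 92.7 and 86.1 CPM in female SNI, 89.3, 99.1 and 101 CPM in male sham and 88.9, 99.2 and 89.8 CPM in male SNI mice. The ACC libraries had 50.5, 45.2 and 49.5 CPM in female sham, 40.9, 42.7 and 44.0 CPM in female SNI, 43.2, 43.9 and 44.8 CPM in male sham and 41.4, 52.6 and 43.0 CPM in male SNI mice. The lowest mPFC library was well above the highest ACC library, and the difference was close to 2-fold in each sex and treatment (log2 fold change 1.05, SE 0.040, adjusted p = 8.68e-15, with the 4 separate values between 0.96 and 1.15). Its adjusted p was the smallest of the 53 genes.

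Syt10, known for regulated release of IGF-1 in olfactory bulb neurons, was a rare transcript with 3.06 to 5.16 CPM with a median of 4.38 in the mPFC and 1.64 to 2.51 CPM with a median of 2.09 in the ACC. No ACC library reached the lowest mPFC library (log2 fold change 0.98, SE 0.095, adjusted p = 1.04e-08). Syt7, a slow sensor with high calcium affinity, was abundant and its ranges were also apart, with 445 to 501 CPM with a median of 475 against 387 to 433 CPM with a median of 399 (0.24, SE 0.024, adjusted p = 1.44e-08). Smaller excesses in the mPFC, with overlapping ranges, were measured for Syt5 (0.35, SE 0.036, adjusted p = 2.94e-08) and Syt4, whose first C2 domain does not bind calcium (0.25, SE 0.050, adjusted p = 0.000223).

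On the ACC side, Syt12, a vesicle protein that does not bind calcium, had 32.2 to 44.7 CPM with a median of 36.4 in the mPFC and 46.0 to 58.7 CPM with a median of 49.1 in the ACC, and the ranges did not overlap (log2 fold change -0.46, SE 0.044, adjusted p = 8.53e-09). Syt13, which also lacks calcium binding, differed less (-0.17, SE 0.032, adjusted p = 8.73e-05). Syt3, a high affinity sensor of the plasma membrane, differed by -0.11 (adjusted p = 0.0269) and Syt14 by -0.12 (adjusted p = 0.0413, and 0.142 after a correction for GC content). Not called were Syt11 (0.03, adjusted p = 0.193), Syt15 (-0.18, adjusted p = 0.421) and Syt16 (0.00, adjusted p = 0.956). The difference of Syt16 had an SE of 0.025, so the regions were close in this gene.

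Syt6 was higher in the mPFC of sham mice. After SNI it was not called between the regions with all libraries, and it was called in runs that left out 1. It lies at chr3:103575231-103645569 on the plus strand and overlaps the pseudogene Atg4a-ps on the other strand, so reads of the 2 cannot be told apart if the counting ignored strand. The mPFC values were 24.5, 30.1 and 22.8 CPM in female sham, 25.5, 27.2 and 28.0 CPM in male sham, 18.1, 27.4 and 24.4 CPM in female SNI and 21.2, 17.5 and 20.7 CPM in male SNI mice. In the ACC they were 12.6, 16.1 and 13.6 CPM in female sham, 16.3, 23.0 and 16.4 CPM in male sham, 18.8, 20.4 and 23.7 CPM in female SNI and 24.6, 22.6 and 19.0 CPM in male SNI mice. The regions were apart in sham mice of both sexes and overlapped after SNI. The log2 fold change, mPFC against ACC, was 0.88, SE 0.12, adjusted p = 0.000722 in female sham mice and 0.55, SE 0.12, adjusted p = 0.0152 in male sham mice. After SNI it was 0.17 (adjusted p = 0.392) in females and -0.15 (adjusted p = 0.347) in males. Without female SNI mPFC replicate 1 the female difference was 0.32 (adjusted p = 0.0256), higher in the mPFC, and without male SNI ACC replicate 3 the male difference was -0.25 (adjusted p = 0.0893), higher in the ACC. Over all libraries Syt6 was higher in the mPFC (0.36, SE 0.073, adjusted p = 0.000365). Whether these differences themselves differ was tested as an interaction, given with the SNI results.

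Doc2 proteins are soluble sensors with 2 C2 domains that act in spontaneous and asynchronous release. Doc2b had 24.4, 25.03 and 25.2 CPM in the female sham mPFC, 20.9, 24.7 and 22.9 CPM in the female SNI mPFC, 27.1, 27.1 and 26.8 CPM in the male sham mPFC and 22.9, 25.2 and 23.7 CPM in the male SNI mPFC. Its ACC values were 12.9, 13.9 and 16.4 CPM in female sham, 12.3, 12.8 and 11.6 CPM in female SNI, 13.7, 14.0 and 13.2 CPM in male sham and 12.3, 14.5 and 12.3 CPM in male SNI mice. All mPFC libraries were above all ACC libraries (log2 fold change 0.89, SE 0.040, adjusted p = 5.09e-14). Doc2a, at chr7:126847416-126852705 on the plus strand and overlapping Ino80e on the other strand, had 66.1 to 94.9 CPM with a median of 83.1 in the mPFC and 58.2 to 74.2 CPM with a median of 64.2 in the ACC, ranges that overlapped (0.34, SE 0.045, adjusted p = 1.38e-06). Doc2b made up 13.2% to 20.9% with a median of 16.0% of the pair in the mPFC and 10.1% to 13.3% with a median of 11.3% in the ACC, per kilobase of exon. Doc2g, the isoform that lacks calcium binding, was rare and higher in the ACC (-0.23, adjusted p = 0.0309), though not called without a filter on low counts (adjusted p = 0.154), and 49.5% of its 100-base stretches belong also to the gene model Gm49405.

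All 3 complexins tested were higher in the ACC in the fit over all libraries, under every alternative run. In the 4 separate pairings Cplx1 was called in 4, Cplx2 in 3 and Cplx3 in 1. Cplx1, which many inhibitory neurons use, had 317 to 438 CPM with a median of 356 in the mPFC and 534 to 703 CPM with a median of 617 in the ACC, with no overlap (log2 fold change -0.77, SE 0.042, adjusted p = 6.8e-13). Cplx2, the complexin of most excitatory terminals, had 847 to 1077 CPM with a median of 922 against 1021 to 1260 CPM with a median of 1110, with overlap (-0.25, SE 0.032, adjusted p = 1.03e-06). Cplx1 was 44.4% to 49.0% with a median of 46.6% of the pair per kilobase of exon in the mPFC and 53.9% to 57.9% with a median of 55.3% in the ACC. Cplx3, known from retinal ribbon synapses and deep cortical neurons, was rare (-0.28, SE 0.082, adjusted p = 0.0072), and its separate differences ran from -0.66 in male SNI to 0.04 in female sham mice.

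Among the Vamp genes the ACC had more Vamp1, Vamp3 and Vamp7, the mPFC had more Vamp2, and 3 were not called. Vamp1, the synaptobrevin of fast synapses in spinal cord and brainstem, was counted at 77.3, 52.2 and 50.8 CPM in the female sham mPFC, 55.3, 51.0 and 55.9 CPM in the female SNI mPFC, 61.5, 54.5 and 47.2 CPM in the male sham mPFC and 65.1, 54.3 and 59.99 CPM in the male SNI mPFC. Its ACC libraries had 119.9, 139 and 129 CPM in female sham, 167, 151 and 137 CPM in female SNI, 144, 142 and 160.4 CPM in male sham and 164, 133 and 171 CPM in male SNI mice. The regions were far apart (2.56-fold, log2 fold change -1.35, SE 0.062, adjusted p = 7.29e-14). Vamp2 had 1070 to 1163 CPM with a median of 1113 in the mPFC and 976 to 1074 CPM with a median of 1023 in the ACC (0.11, SE 0.019, adjusted p = 4.61e-05), so Vamp1 was 1.57% to 2.52% with a median of 1.82% of the pair per kilobase of exon in the mPFC and 4.2% to 5.86% with a median of 5.06% in the ACC.

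Vamp3, or cellubrevin, differed by -0.14 (adjusted p = 0.0212) and Vamp7, which acts on late endosomes and in neurite growth, by -0.28 (adjusted p = 0.00146). Vamp7 was uneven among male ACC libraries: male sham mice had 31.7, 33.6 and 20.01 CPM and male SNI mice 21.1, 21.3 and 25.7 CPM, against 29.7, 34.3 and 33.4 CPM in female sham mice. The third male sham library thus lay with the SNI libraries. Vamp4 (0.05) and Vamp8 (-0.13), which serve endosomes, and Vamp5 (-0.21), known from muscle, were not called, at adjusted p-values of 0.39, 0.371 and 0.221.

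Of 7 syntaxin binding protein genes, 2 were higher in the mPFC, 2 were higher in the ACC and 3 were not called. Stxbp2, which serves granule secretion outside the brain, and Stxbp4 were among those not called, at 0.04 and 0.01 (adjusted p = 0.57 and 0.828). The tomosyns, which compete with Vamp for the SNARE complex, went opposite ways, with Stxbp5 at 0.12, SE 0.026, adjusted p = 0.000555 and Stxbp5l at -0.15, SE 0.042, adjusted p = 0.00525. Stxbp6 (amisyn) was higher in the mPFC (0.17, adjusted p = 0.00325) and Stxbp3 in the ACC (-0.19, adjusted p = 0.019), though 6.35% of the 100-base stretches of Stxbp3 are shared with Stxbp3-ps.

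In the priming and active zone families the ACC was higher for 6 of 8 genes tested. Unc13a (Munc13-1), at chr8:71624417-71671757 on the minus strand and overlapping Colgalt1 on the other strand, had 459.6 to 584 CPM with a median of 497 in the mPFC and 502 to 627 CPM with a median of 533 in the ACC. The ranges overlapped and the difference was small (-0.12, SE 0.034, adjusted p = 0.00443). It was not called in female sham mice, at 0.02 (adjusted p = 0.878, and -0.12 after a correction for GC content), and was -0.17 (adjusted p = 0.151) in male sham mice, while the differences after SNI, -0.12 in females and -0.21 in males, were called (adjusted p = 0.0963 and 0.0283). The call in female SNI mice was lost without any of 5 of the 6 libraries (all but mPFC replicate 1; adjusted p = 0.101 to 0.291), that in male SNI mice without ACC replicate 1 (adjusted p = 0.117), and in male sham mice leaving out ACC replicate 1 gave a call (adjusted p = 0.0959). Unc13c (Munc13-3) was higher in the ACC (-0.34, SE 0.045, adjusted p = 1.83e-06), Unc13b (Munc13-2) was slightly higher in the mPFC (0.09, SE 0.027, adjusted p = 0.00777) and Unc13d, which serves secretion in blood cells, was not called (-0.07, adjusted p = 0.683).

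All 4 Rims genes were higher in the ACC, and this direction held under every alternative run. Rims3, a short form with only the last C2 domain, had 232 to 309 CPM with a median of 266 in the mPFC and 351 to 463 CPM with a median of 388 in the ACC (log2 fold change -0.58, SE 0.039, adjusted p = 2.73e-11). Rims1, the main scaffold of the release site, had 235 to 293 CPM with a median of 252 against 302 to 377 CPM with a median of 326 (-0.36, SE 0.034, adjusted p = 6.31e-09). Neither gene overlapped between the regions. Rims2 and Rims4 differed less, by -0.19 (SE 0.026) and -0.12 (SE 0.026), at adjusted p-values of 3.13e-06 and 0.00105.

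Of 9 copines, 5 were higher in the mPFC, 3 were higher in the ACC and Cpne1 was not called. Cpne7 (chr8:123117374-123135182, plus strand, with Mir7080 inside it) was counted at 55.8, 66.1 and 54.5 CPM in the female sham mPFC, 44.3, 61.1 and 45.7 CPM in the female SNI mPFC, 51.5, 52.4 and 51.8 CPM in the male sham mPFC and 45.8, 48.9 and 43.7 CPM in the male SNI mPFC. The ACC held 26.2, 25.04 and 27.2 CPM in female sham, 23.2, 24.4 and 25.03 CPM in female SNI, 26.9, 23.6 and 30.5 CPM in male sham and 25.7, 29.0 and 28.4 CPM in male SNI mice. No ACC library came near the lowest mPFC library (log2 fold change 0.98, SE 0.051, adjusted p = 3.74e-13). Cpne6, a brain copine that acts in dendritic spines, had 152 to 202 CPM with a median of 180.2 in the mPFC and 97.9 to 128 CPM with a median of 108 in the ACC, again apart (0.71, SE 0.039, adjusted p = 8.63e-13).

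Cpne4, Cpne2 and Cpne5 were higher in the mPFC by 0.23, 0.19 and 0.16 on the log2 scale (adjusted p = 0.000131, 0.00292 and 0.00207). Cpne9, at chr6:113282307-113305627 on the plus strand with Gm43935 on the other strand, was higher in the ACC, with 31.9 to 48.2 CPM with a median of 38.7 in the mPFC and 41.7 to 51.6 CPM with a median of 48.1 in the ACC (-0.28, SE 0.049, adjusted p = 7.65e-05). Its separate differences were -0.26, -0.22, -0.42 and -0.18 in female sham, female SNI, male sham and male SNI mice, and that in female sham mice was not called (adjusted p = 0.143). With 1 library left out, the call in female SNI mice was lost in 4 of 6 runs (adjusted p = 0.134 to 0.197) and that in male SNI mice in 5 of 6 (0.124 to 0.174), that in male sham mice held in all 6, and the female sham difference was called without female sham mPFC replicate 1 (-0.43, adjusted p = 0.0149). Cpne8 and Cpne3 were higher in the ACC by smaller amounts (-0.18 and -0.12, adjusted p = 0.00161 and 0.0717), and Cpne3 was not called in 10 of the alternatives, 9 of them without a single library. Cpne1 (0.01) shares 64.8% of its 100-base stretches with Rbm12 and Gm28036, so its counts are uncertain.

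The same 4 genes, Syt17, Cpne7, Doc2b and Cpne6, led on the mPFC side in all 4 pairings of sex and treatment. With the 4 smallest adjusted p-values in each direction, female sham mice had Cpne7 (1.18), Syt17 (0.96), Cpne6 (0.75) and Doc2b (0.80) in the mPFC and Syt2 (-1.99), Vamp1 (-1.10), Rims3 (-0.55) and Cplx1 (-0.59) in the ACC (log2 fold change in brackets, adjusted p of at most 0.00243). Female SNI mice had Syt17 (1.099), Cpne6 (0.77), Doc2b (0.91) and Cpne7 (1.07) in the mPFC and Syt2 (-2.81), Vamp1 (-1.48), Cplx1 (-0.91) and Cplx2 (-0.39) in the ACC (at most 6.73e-05). In male sham mice these were Syt17 (1.14), Doc2b (0.998), Cpne7 (0.95) and Cpne6 (0.71) in the mPFC and Vamp1 (-1.44), Syt2 (-2.58), Cplx1 (-0.83) and Rims3 (-0.68) in the ACC (at most 0.000236), and in male SNI mice Syt17 (1.02), Cpne7 (0.74), Doc2b (0.88) and Cpne6 (0.66) in the mPFC and Syt2 (-2.55), Vamp1 (-1.38), Cplx1 (-0.72) and Rims3 (-0.53) in the ACC (at most 0.000117). Syt2, Vamp1 and Cplx1 were among the 4 leading ACC genes of every pairing, and the other was Rims3 or, in female SNI mice, Cplx2.

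**Figure D3:**
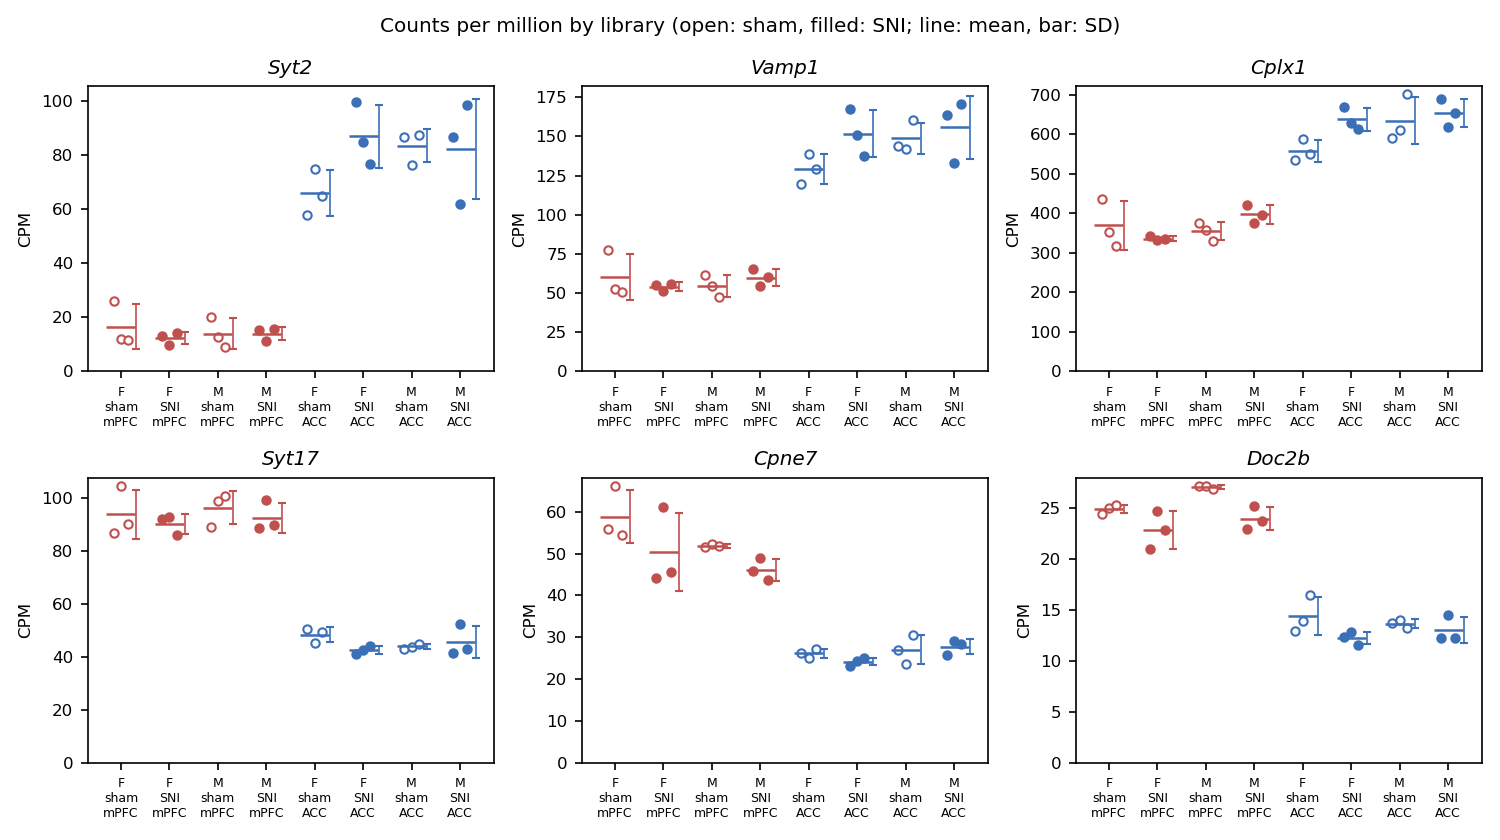
CPM of 6 genes in each library, with the mean as a line and the SD as a bar for each group of 3; red is mPFC, blue is ACC, open circles are sham and filled circles SNI. Syt2, Vamp1 and Cplx1 are higher in every ACC library, and Syt17, Cpne7 and Doc2b in every mPFC library.

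Cell type markers moved with these genes. In bulk tissue, fewer cells of a type and less RNA per cell cannot be told apart. All 8 markers of fast-spiking interneurons were higher in the ACC, with a median log2 fold change of -0.79 and -1.72 for Pvalb (adjusted p = 1.06e-13). Their summed level ran from 387 to 499 CPM in the mPFC libraries and from 581 to 759 CPM in the ACC libraries, with none at 0. Of 9 markers of other inhibitory neurons, 5 were called higher in the ACC and 3 in the mPFC, with summed levels of 1218 to 1355 and 1344 to 1488 CPM, and Gad1 had 249 to 272 CPM in the mPFC and 320.5 to 381 CPM in the ACC, without overlap. These levels stand beside Syt2, Vamp1 and Cplx1, and their part in the difference of these genes was not tested. Of 7 markers of layer 6 and 6b, 5 were higher in the mPFC and 0 in the ACC, with summed levels of 143 to 208 and 121 to 162 CPM, beside Syt6. Layer 4 markers summed to 35.6 to 46.3 CPM in the mPFC and 43.6 to 56.8 CPM in the ACC, and of 7 markers of striatal neurons 3 were higher in the mPFC, among them Drd1 (0.77) and Drd2 (1.48), and Penk was higher in the ACC (-0.61). Of 10 oligodendrocyte markers 8 were called higher in the ACC, with a median log2 fold change of -0.31 and summed levels of 1124 to 3930 CPM in the mPFC and 2586 to 4271 CPM in the ACC, and in sham mice of either sex none of the 10 was called. All 4 endothelial markers were called higher in the ACC, with summed levels of 145 to 178 and 181 to 216 CPM that did not overlap, and so were 3 of 4 mural cell markers (118 to 159 and 153 to 192 CPM). The part of these cells in the regional differences was not tested. Without the library rich in choroid plexus markers 41 release genes were called (47% of all genes), and without the mPFC library poor in oligodendrocyte markers 42 (48.1%).

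Since the regions form separate clusters, the covariation of these genes was examined within the 12 libraries of each region, for 4 pairs and 8 relations chosen with earlier results known. Syt2 and Vamp1 rose and fell together in the mPFC (Pearson r = 0.939, permutation p = 6e-05, Spearman rho = 0.944, permutation p = 6e-05) and in the ACC (Pearson r = 0.941, permutation p = 2e-05, Spearman rho = 0.93, permutation p = 8e-05). The smallest p that the 100000 permutations can give is 2e-05. With Benjamini-Hochberg adjustment over the 8 relations, the adjusted p of r was 0.00024 and 0.00016, and of rho 0.00032 in both. Without the 2 libraries farthest from the median of Syt2, r was 0.895 and 0.927, and within the 6 libraries of a sex it was 0.984 (female mPFC), 0.875 (male mPFC), 0.992 (female ACC) and 0.876 (male ACC). The relation thus held in each sex.

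Cplx1 followed Syt2 less closely, in the mPFC (Pearson r = 0.756, permutation p = 0.0074, Spearman rho = 0.769, permutation p = 0.00518) and the ACC (Pearson r = 0.754, permutation p = 0.00544, Spearman rho = 0.741, permutation p = 0.00716). The adjusted p-values of r were 0.0074 and 0.00645 and of rho 0.00691 and 0.00818, and r was 0.632 and 0.755 without the 2 farthest libraries. Within a sex r was 0.39 (male ACC), 0.986 (female ACC), 0.917 (female mPFC) and 0.658 (male mPFC), over 6 libraries each. These values were not tested against each other. Syt2 also went with Pvalb in the mPFC (Pearson r = 0.841, permutation p = 0.00032, Spearman rho = 0.797, permutation p = 0.00314) and in the ACC (Pearson r = 0.859, permutation p = 0.00044, Spearman rho = 0.783, permutation p = 0.00452). Here the adjusted p-values of r were 0.00085 and 0.00088 and of rho 0.00648 and 0.00691, with r of 0.829 and 0.866 without the 2 farthest libraries, 0.96 and 0.861 within female and male mPFC and 0.965 and 0.83 within female and male ACC. The first sham mPFC library of each sex, which was highest in Syt2, was also high in Pvalb, at 15.3 CPM in females and 14.2 CPM in males.

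Syt6 went with Foxp2, a marker of layer 6 corticothalamic neurons, in the mPFC (Pearson r = 0.827, permutation p = 0.00248, Spearman rho = 0.804, permutation p = 0.00324) and in the ACC (Pearson r = 0.712, permutation p = 0.00564, Spearman rho = 0.734, permutation p = 0.00844). The adjusted p-values of r were 0.00397 and 0.00645 and of rho 0.00648 and 0.00844. Without the 2 libraries farthest in Foxp2, r was 0.872 and 0.764. Within a sex it was 0.651 (female mPFC), 0.971 (male mPFC), 0.887 (female ACC) and 0.898 (male ACC). SNI and sham libraries enter these relations together, so a shared response to SNI is included in them.

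**Figure D4:**
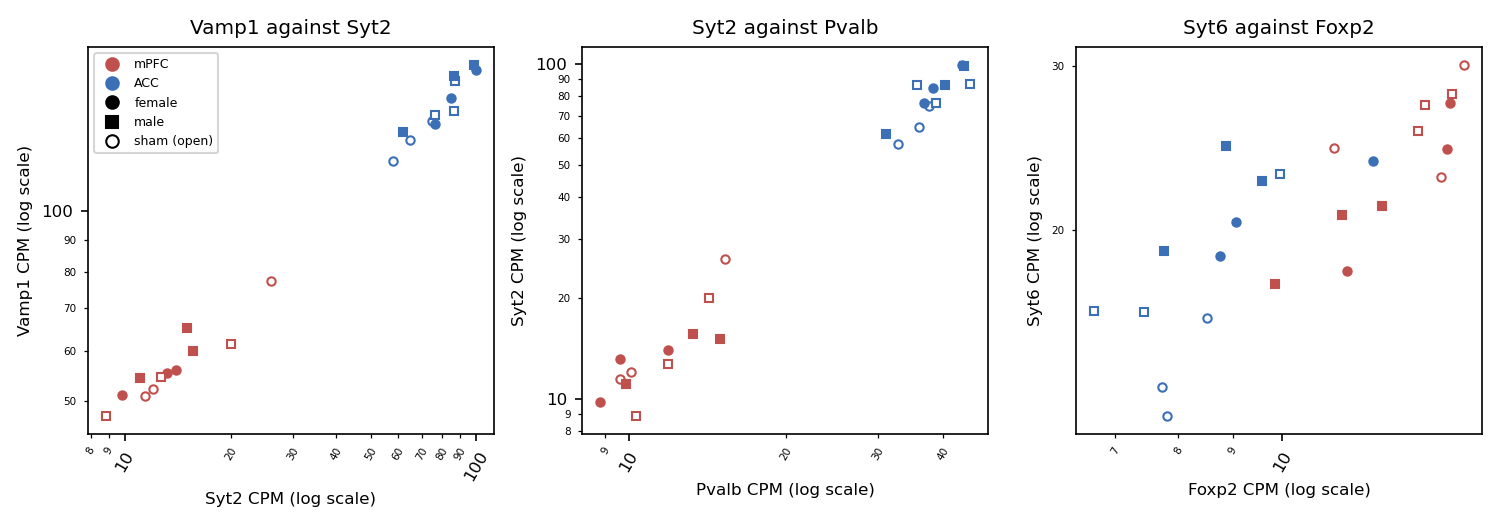
CPM of Vamp1 against Syt2, Syt2 against Pvalb and Syt6 against Foxp2 in each of 24 libraries, on log axes; red is mPFC, blue is ACC, circles are female, squares are male and open symbols are sham. The regions form separate clusters for Syt2, Vamp1 and Pvalb, and within each cluster the points rise together.

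Other genes of the release machinery, 55 in 4 lists, were tested beside these families, and 54 had enough counts. Between the regions, 24 were higher in the mPFC and 14 in the ACC, with a median log2 fold change of 0.04 against -0.09 for the 53 release genes above. Among SNAREs and their disassembly proteins 2 of 12 were higher in the mPFC and 4 in the ACC, and the plasma membrane SNARE Snap25 was higher in the ACC (-0.47, adjusted p = 1.65e-11). Of 14 vesicle proteins 9 were higher in the mPFC, among them Syn2 (0.43, adjusted p = 2.3e-10) and Synpr (0.55, adjusted p = 6.95e-09), and 3 in the ACC, among them the vesicular glutamate transporter Slc17a6 (-1.24, adjusted p = 4.49e-11). Active zone and priming genes were higher in the mPFC for 8 of 18 and in the ACC for 3. Of 10 other C2 domain genes tested, 5 were higher in the mPFC, led by Otof (0.98, adjusted p = 3.82e-13), and 4 in the ACC, led by Sytl2 (-0.43, adjusted p = 2.36e-10).

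The second comparison asked which release genes changed with SNI. In the male mPFC 2 of 53 genes changed (3.77%), Cpne9 upward and Syt6 downward, where 0.494% of all genes were called (0.153% upward and 0.341% downward). The median log2 fold change was 0.01 over the 53 genes and 0.0013 over all genes. Cpne9 had 32.9, 34.1 and 31.9 CPM in male sham and 41.8, 43.1 and 42.5 CPM in male SNI mice, with every SNI library above every sham library. The log2 fold change, SNI against sham, was 0.37, SE 0.053, adjusted p = 0.0325. Syt6 had 25.5, 27.2 and 28.0 CPM in sham and 21.2, 17.5 and 20.7 CPM in SNI mice, with every SNI library below every sham library. Its log2 fold change was -0.43, SE 0.075, adjusted p = 0.0558. Neither was called without male sham mPFC replicate 3 (adjusted p = 0.157 and 0.257), Syt6 was not called without male SNI mPFC replicate 2 (adjusted p = 0.104), and neither was called in the fit over 24 libraries (adjusted p = 0.636 and 0.719).

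Markers of other cells moved in the same comparison. All 7 layer 6 markers were lower after SNI in the male mPFC, with a median log2 fold change of -0.29, and 2 of them, Tle4 (-0.33) and Ccn2 (-0.43), were called (adjusted p = 0.0607 and 0.0806). Their summed level was 175 to 195 CPM in sham and 143 to 159 CPM in SNI libraries, with none at 0. All 10 oligodendrocyte markers were lower, 8 of them called, with summed levels of 3414 to 3930 and 2028 to 2953 CPM. Summed levels of excitatory neuron markers were 5198 to 5546 CPM in sham and 5856 to 6153 CPM in SNI libraries, with 4 of 6 log2 fold changes above 0 and 0 called. Fast-spiking markers summed to 417 to 431.5 CPM in sham and 432.2 to 468.2 CPM in SNI libraries, with 7 of 8 log2 fold changes above 0 and 0 called. Both sums lay higher in all SNI libraries than in all sham libraries. Layer 5 markers (549 to 585 CPM in sham, 499.8 to 547 CPM in SNI libraries) and markers of oligodendrocyte precursors (99.1 to 109 and 92.7 to 98.7 CPM) were also apart, with 0 called. The part of these cells in the changes of Syt6 and Cpne9 was not tested. The other examples in the male mPFC did not pass the test: Cpne7 had -0.16 (adjusted p = 0.254), Unc13a 0.12 (adjusted p = 0.292), Doc2a 0.16 (adjusted p = 0.495), Syt17 -0.05 (adjusted p = 0.77) and Syt2 0.01 (adjusted p = 0.986). After a correction for GC content Cpne7 was called at -0.23 (adjusted p = 0.078), where 0.365% of all genes were called. A replicate block called 8 release genes, Unc13a and Doc2a among them, and 4.39% of all genes. Whether libraries that share a number belong together is not given by the labels. Without the filter on low counts Cpne5, Rims3 and Cplx1 were called higher beside Syt6 and Cpne9, with 2.01% of all genes. At an unadjusted p under 0.05 there were 12 of 53 release genes, 6 in each direction, and 11.2% of all genes.

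In the female ACC 0 of 53 genes were called by edgeR's quasi-likelihood test, where 0.024% of all genes were called, and 13 had an unadjusted p under 0.05, 9 upward and 4 downward, against 6.67% of all genes. DESeq2 called 3, which were Syt6, Cplx1 and Cplx2, and 0.222% of all genes. The study itself reports Syt6 and Syt2 among the genes higher after SNI in the female ACC, at an FDR under 0.1. It also reports that quantitative PCR in separate samples, with Syt2 among the genes assessed, bore out its sequencing results. For 15 genes the 3 SNI libraries lay all above or all below the 3 sham libraries, and this was so for 11.6% of all genes. Syt6 had 12.6, 16.1 and 13.6 CPM in sham and 18.8, 20.4 and 23.7 CPM in SNI mice, which did not overlap (log2 fold change 0.57, SE 0.10, adjusted p = 0.252). Cplx1 had 534, 588 and 550.0 CPM in sham and 669.9, 629.9 and 615 CPM in SNI mice (0.19, SE 0.040, adjusted p = 0.343), also without overlap. The median log2 fold change was 0.01 over the 53 genes and -0.0007 over all genes. Syt2 had 0.40 (adjusted p = 0.46), Syt17 -0.19 (adjusted p = 0.54), Cpne7 -0.12 (adjusted p = 0.761), Doc2a -0.11 (adjusted p = 0.761), Unc13a 0.03 (adjusted p = 0.92) and Cpne9 0.01 (adjusted p = 0.99). Without female sham ACC replicate 2, 5 genes were called, and 0.8% of all genes: Syt6, Syt2, Cplx1 and Cplx2 upward and Syt17 downward. Without the filter on low counts 7 were called, and 1.38% of all genes: Syt2 (adjusted p = 1.35e-14), Syt6 (1.34e-10), Cplx1, Cplx2, Vamp1 and Unc13c upward and Syt17 (0.0356) downward. Fast-spiking markers summed to 581 to 658 CPM in sham and 673 to 752 CPM in SNI libraries, and layer 6 markers to 121 to 138 and 131 to 161 CPM, with none of either list at 0. Meningeal fibroblast markers summed to 44.4 to 64.0 CPM in sham and 35.5 to 36.7 CPM in SNI libraries, 1 of 5 called lower, and choroid plexus markers to 3.86 to 938 and 2.94 to 3.66 CPM, with Folr1 at 0 in an SNI library. The sums of fast-spiking, meningeal and choroid plexus markers did not overlap between the groups, and the part of these cells was not tested.

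In the female mPFC 0 of 53 genes were called by the same test, where 0.00592% of all genes were called, and 3 had an unadjusted p under 0.05 (12.1% of all genes). DESeq2 called 0, and the median log2 fold change was -0.05 over the 53 genes and -0.0034 over all genes. The smallest p-values were those of Cpne2, with 16.3, 18.9 and 17.1 CPM in sham and 13.7, 14.8 and 14.5 CPM in SNI mice (-0.27, SE 0.087, adjusted p = 0.401), and Stxbp5l, with 52.8, 54.9 and 52.9 and 67.6, 58.1 and 59.6 CPM (0.21, SE 0.074, adjusted p = 0.401). Neither gene overlapped between the groups. Syt2 was at -0.42 (SE 0.26), and at 0.07 without female sham mPFC replicate 1. Syt6 had -0.13, Syt17 -0.05, Cpne7 -0.21, Cpne9 0.06, Unc13a -0.11 and Doc2a -0.03 (the last 2 turning to 0.001 and 0.13 after a correction for GC content), at adjusted p-values from 0.465 to 0.86. Without female sham mPFC replicate 3, 8 genes were called, of which Syt4, Vamp4 and Vamp7 were higher and Cplx1, Cplx2, Syt3, Cpne2 and Unc13a lower after SNI, and 15.9% of all genes were called in that run. Without the filter on low counts Syt2 was called lower (adjusted p = 0.00551), with 2.19% of all genes. Markers of several cell types were apart between the groups, with 0 called. Oligodendrocyte markers summed to 3000 to 3471 CPM in sham and 1124 to 2800 CPM in SNI libraries, other inhibitory neuron markers to 1285 to 1335 and 1218 to 1267 CPM, striatal markers to 109 to 156 and 91.8 to 106 CPM, and layer 2/3 markers to 526 to 533 and 542 to 584 CPM. Their part in these values was not tested.

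In the male ACC 0 of 53 genes were called by the same test (0.00599% of all genes), and 1 had an unadjusted p under 0.05 (4.48% of all genes). DESeq2 called 0, and the median log2 fold change was 0.02 over the 53 genes and -0.0088 over all genes. The smallest p was that of Stxbp5l, with 75.4, 74.0 and 59.2 CPM in sham and 59.8, 60.05 and 60.1 CPM in SNI mice, whose groups overlapped through the third sham library (-0.22, SE 0.092, adjusted p = 0.768). Vamp4 came next (-0.21, SE 0.098, adjusted p = 0.768). Of the examples, Syt6 was at 0.24, Unc13a at 0.13, Cpne9 at 0.11, Doc2a at 0.08 (-0.04 after a correction for GC content), Syt17 at 0.05, Cpne7 at 0.03 and Syt2 at -0.03, with adjusted p-values from 0.768 to 0.96. Without male sham ACC replicate 3, 7 genes were called: Stxbp5l, Syt4, Vamp4, Vamp7 and Stxbp6 lower and Syt3 and Unc13a higher after SNI. In that run 13.5% of all genes were called.

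**Figure D5:**
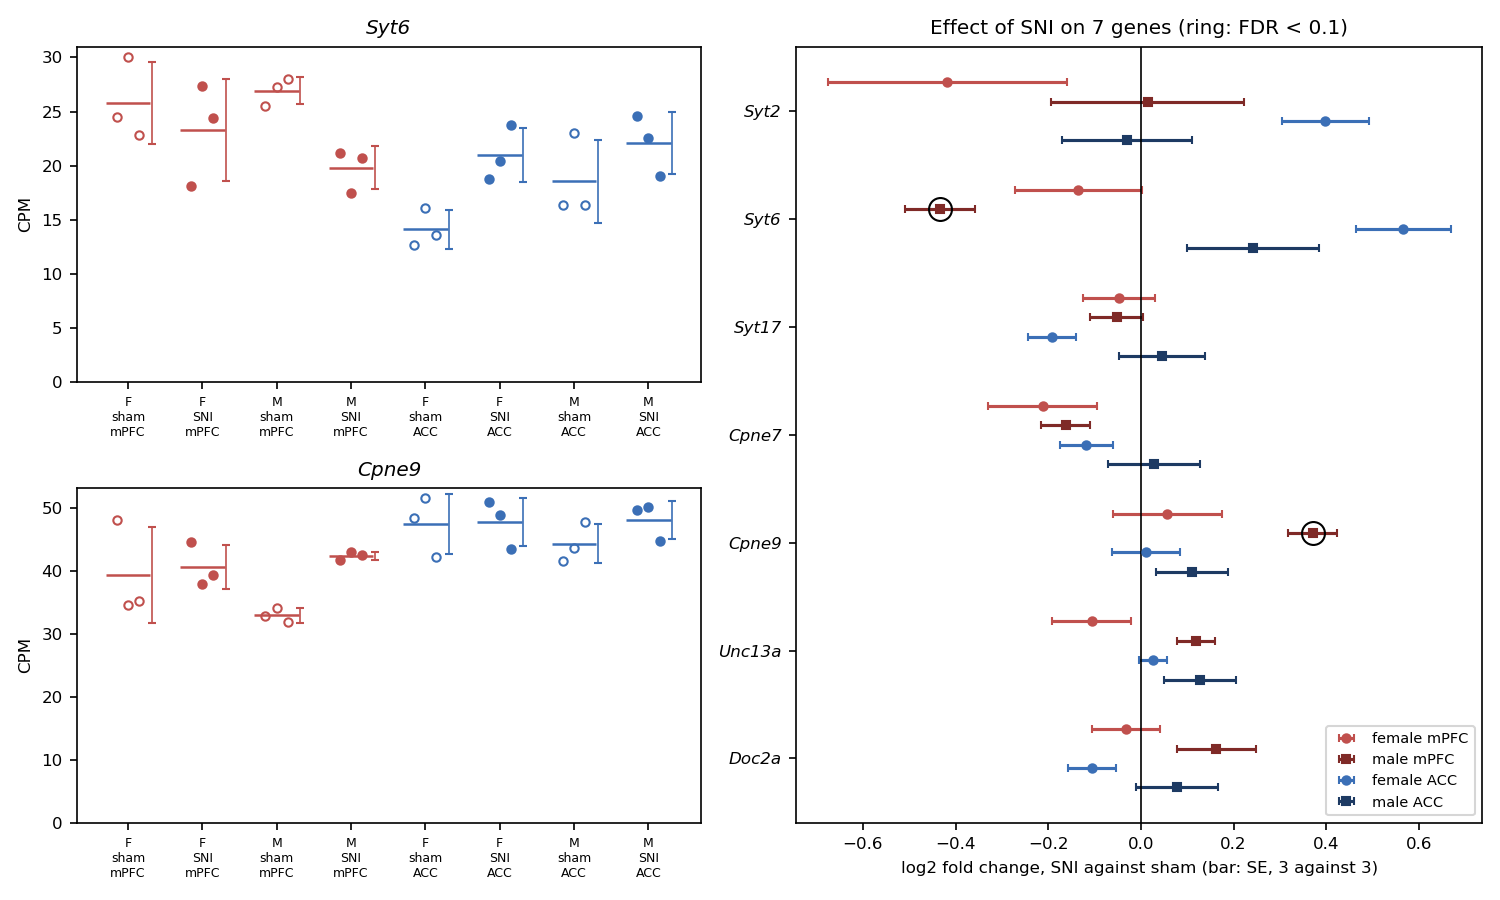
Left, CPM of Syt6 and Cpne9 in each library (lines are means, bars SD, open sham, filled SNI); right, log2 fold change, SNI against sham, of 7 genes in each sex and region, with the SE of a fit of 3 against 3 libraries and a ring where the FDR is under 0.1. The rings mark Syt6 and Cpne9 in the male mPFC, and Syt6 lies below 0 in the mPFC and above 0 in the ACC of both sexes.

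With the sexes fitted together, 0 of 53 genes were called in the mPFC and 0 in the ACC by edgeR's quasi-likelihood test, where 0.00567% and 0.0174% of all genes were called. At an unadjusted p under 0.05 there were 8 and 9 genes (8.46% and 5.84% of all genes), and DESeq2 called 0 in both. Syt6 was at -0.28, SE 0.089, adjusted p = 0.361 in the mPFC and 0.41, SE 0.099, adjusted p = 0.782 in the ACC. Beside it, Cpne2 was at -0.19, SE 0.059, adjusted p = 0.361 in the mPFC and Cplx2 at 0.12, SE 0.040, adjusted p = 0.782 in the ACC. The other examples in the mPFC were Cpne9 at 0.22, Cpne7 at -0.19, Syt2 at -0.20, Doc2a at 0.07, Syt17 at -0.05 and Unc13a at 0.01, and in the ACC Syt2 at 0.19, Unc13a at 0.08, Cpne9 at 0.07, Syt17 at -0.07, Cpne7 at -0.04 and Doc2a at -0.01. Without male sham ACC replicate 3, 8 genes were called in the ACC, Syt6, Cplx1, Cplx2, Syt3 and Unc13a upward and Syt4, Vamp4 and Vamp7 downward, beside 7.27% of all genes. Cpne7 was called in the mPFC without female SNI mPFC replicate 2 (0.434% of all genes). Without the filter on low counts Syt6, Cpne7 and Stxbp3 were called lower and Cpne9 higher in the mPFC (1.92% of all genes), and Syt6 higher in the ACC (0.431% of all genes). Of the 55 other release genes, 52 were tested after SNI in the female mPFC and 53 in each of the male mPFC, female ACC and male ACC, and edgeR called 0 in all 4.

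Whether the response to SNI differed between the regions was tested as an interaction. For Syt6 the SNI effect in the mPFC minus that in the ACC was -0.71 (SE 0.20) for females, adjusted p = 0.428, and -0.69 (SE 0.17) for males, adjusted p = 1.0, close in size and not called in either sex. Cplx2 was at -0.30, SE 0.081, adjusted p = 0.428 in females and Cpne9 at 0.25, SE 0.095, adjusted p = 1.0 in males. By edgeR's quasi-likelihood test 0 of 53 genes were called in females and 0 in males (0% of all genes in each), with 11 and 3 at an unadjusted p under 0.05 (11.1% and 3.19% of all genes), and DESeq2 called 0 in both. Without female sham mPFC replicate 3, 12 genes were called in females, among them Syt2 (-1.01), Syt6 (-0.78), Vamp1 (-0.48) and Cplx1 (-0.41), and so were 11.6% of all genes. Without the filter on low counts Syt2, Syt6, Vamp1, Cplx1 and Cplx2 were called in females (2.16% of all genes) and Syt6 in males (0.407% of all genes), all with estimates below 0.

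The response to SNI was also compared between the sexes. In the mPFC the female effect minus the male effect was 0.33, SE 0.094, adjusted p = 0.216 for Stxbp5l and 0.30, SE 0.12, adjusted p = 0.267 for Syt4, and in the ACC it was 0.29, SE 0.13, adjusted p = 0.753 for Stxbp5l and -0.25, SE 0.11, adjusted p = 0.753 for Syt17. None of 53 genes was called in either region by edgeR's quasi-likelihood test (0% of all genes), with 9 and 4 at an unadjusted p under 0.05 (15.8% and 5.92% of all genes). DESeq2 called 1 in the mPFC, Stxbp5l (1.2% of all genes), and 0 in the ACC. Without female sham mPFC replicate 3 there were 12 calls in the mPFC (18.3% of all genes), and without male sham ACC replicate 3 there were 7 in the ACC (9.65% of all genes).

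Sham females and sham males differed in 0 of 53 release genes in the mPFC and 0 in the ACC, where 0.177% and 0.0958% of all genes were called by edgeR's quasi-likelihood test, and 7 genes in each region had an unadjusted p under 0.05 (10.6% and 6.64% of all genes). DESeq2 called Stxbp5l in the mPFC (0.597% of all genes) and 0 in the ACC. In the sham mPFC, Stxbp5l had 52.8, 54.9 and 52.9 CPM in females and 69.5, 62.1 and 62.9 CPM in males (log2 fold change, female against male, -0.27, SE 0.065, adjusted p = 0.218), and Stxbp2 had 0.30, SE 0.093, adjusted p = 0.335. In the sham ACC, Syt2 had 57.8, 74.8 and 64.9 CPM in females and 86.6, 76.2 and 87.2 CPM in males (-0.34, SE 0.096, adjusted p = 0.587), and Syt6 had -0.40, SE 0.14, adjusted p = 0.694. Females were lower than males in every library for Stxbp5l, Syt2 and Syt6 in these comparisons. Non-overlap went both ways: 8 release genes were apart in the sham mPFC, 4 higher and 4 lower in females. In the sham ACC 11 were apart, 5 higher and 6 lower, and the share over all genes is not given. In the sham ACC fast-spiking markers summed to 581 to 658 CPM in females and 675 to 759 CPM in males, and layer 2/3 markers to 530.2 to 548 and 497 to 512 CPM, both apart with 0 called, and their part was not tested. Without female sham mPFC replicate 3, 12 genes were called in the mPFC, and 15.5% of all genes. The regional difference itself was compared between the sexes over all libraries: Unc13d was at -0.78, SE 0.26, adjusted p = 0.246 and Vamp7 at -0.39, SE 0.13, adjusted p = 0.248, and 0 of 53 genes were called (0% of all genes), with 10 at an unadjusted p under 0.05 (13.7% of all genes) and 0 called by DESeq2. Without female sham mPFC replicate 3, Vamp7 was called (3.47% of all genes).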

How the data were processed

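RNA from tissue punches of the mPFC and ACC was sequenced as paired reads, and the authors deposited raw counts per gene (HTSeq) in 4 tables of 33364 genes and 6 libraries each, 1 table for each region and sex. The submitters' processing notes name Trimmomatic 0.36, Bowtie2 2.33, HISAT2 2.1.0, HTSeq 0.9.1, edgeR 3.34.0 and GRCm38, and the strand setting of the counting is not given in the sources used here. Region and sex came from the table and the labels, and every column was matched to a sample by its name. The members and the gene lists were chosen with earlier results of these data known.

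Counts were tested in edgeR 4.0.16 (R 4.3.3) with TMM factors, filterByExpr (minimum count 10, minimum total 15) and the quasi-likelihood F-test. Benjamini-Hochberg adjustment was over all genes tested, with a threshold of FDR under 0.1. TMM factors, the F-test, the adjustment and the threshold follow the study's methods, which name no filter on low counts. SE is the absolute log2 fold change divided by the square root of F. A comparison of 2 groups used the 6 libraries of those groups alone. The region, both-sexes and interaction comparisons were contrasts of all groups concerned, with the regional difference over all libraries taken as the mean of its 4 pairings. In all 18 comparisons were made. Printed CPM used TMM factors over the 24 libraries, and levels between genes were divided by the kilobases of exon of GENCODE release 21. Library totals of 23853845 to 32864391 counts put the limit that a count of 0 allows (3 counts) at 0.0913 to 0.126 CPM, for counting error only. No replicates agreed within sampling noise (chi-square per gene of 2.67 to 19.9 between replicates). Correlations used log2(CPM + 0.1) and 100000 permutations, two-sided. Medians and counts of the lists are descriptions with no test.

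Named by rule were the examples Syt2, Syt6, Syt17, Cpne7, Cpne9, Unc13a and Doc2a in each SNI and region comparison, up to 12 genes in each direction between the regions over all libraries, every called gene (at most 8) in other comparisons or, where none was called, the 2 with the smallest p, and at most 3 other release genes in each direction. Other genes are named to account for the members, 1 of which is counted with its family but not reported here. Alternatives were RLE factors, testing all genes with no filter, a stricter filter of 10 counts in each library, the current quasi-likelihood method of edgeR, a GC-trend offset (span 0.3), a replicate block with and without it, one fit over 24 libraries, DESeq2 1.42.0, and leaving out each library. The test was checked on simulated counts, and no result given here rests on that check.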

Additional observations from a re-analysis of the deposited data

Results flagged for a closer look

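For 3 results the samples of one group all moved one way and those of the other group all moved the opposite way. The share of all genes with such opposite changes was not computed, so these results have no background to be set against. For SNI in the female ACC alone, the 3 libraries of each group did not overlap for 11.6% of all genes. None of the interactions given for these results was called. Cplx2 was lower after SNI in the female mPFC, at 1077, 962 and 893 CPM in sham and 889, 847 and 862 CPM in SNI mice, and higher in the female ACC, at 1028, 1065 and 1033 and 1156, 1181 and 1100 CPM. The log2 fold changes of -0.17 and 0.13 differed by -0.298, and the interaction of region and SNI was -0.30 with an adjusted p of 0.428 (edgeR's quasi-likelihood test).

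Vamp5, a rare transcript in these tissues, had 0.803, 0.891 and 0.782 CPM in the female sham mPFC and 1.09, 1.31 and 1.14 CPM in the female SNI mPFC, against 1.87, 1.41 and 1.68 CPM in the female sham ACC and 1.34, 1.16 and 1.02 CPM in the female SNI ACC. Its log2 fold changes of 0.52 and -0.49 differed by 1.018 (interaction 1.01, adjusted p = 0.428). Vamp5 also differed in opposite directions between sham females and sham males, who had 1.43, 1.05 and 1.5 CPM in the mPFC and 1.39, 0.824 and 1.29 CPM in the ACC. The female against male log2 fold changes of -0.68 and 0.49 differed by -1.173. This difference in sham mice was not tested on its own; the interaction of sex and region over all libraries was -0.56 with an adjusted p of 0.357. These libraries held 19 to 47 counts of Vamp5. Both Vamp5 results rest on the same female sham libraries of the mPFC and ACC, so they are not independent of each other.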

How the results depend on the processing

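Under alternatives that keep all libraries, 137 counts of called release genes stayed within 1.5 times of those reported, counting those that stayed at 0. Another 19 counts rose from 0, 3 changed by more than 1.5 times and 1 fell to 0. For named genes 1145 values kept their side of the threshold, 44 passed it anew and 8 no longer passed it. Any change of sign among the 1145 was of an uncalled gene and within its SE. With a single library left out, the regional count over all libraries ran from 41 to 43, and those of the separate pairs from 18 to 34 for female sham, 24 to 34 for female SNI, 15 to 30 for male sham and 21 to 31 for male SNI mice, while the shares over all genes ran from 45.6% to 50.7%, and from 13.3% to 41.5%, 16.7% to 31.6%, 6.61% to 27% and 12.4% to 22.3% for the pairs. Without the filter on low counts, SNI calls numbered 1 for the female mPFC (2.19% of all genes), 5 for the male mPFC (2.01%), 7 for the female ACC (1.38%), and 4 (mPFC, 1.92%) and 1 (ACC, 0.431%) with both sexes. Sex calls numbered 3 for the sham mPFC (1.58%) and 1 for the sham ACC (0.399%). The interactions then gave 6 (sex by SNI, mPFC), 1 (sex by SNI, ACC), 5 and 1 (region by SNI, female and male) and 4 (sex by region), where 2.79%, 0.357%, 2.16%, 0.407% and 2.89% of all genes were called. DESeq2 called 3 for SNI in the female ACC (0.222% of all genes), 1 between sexes in the sham mPFC (0.597%) and 1 for sex by SNI in the mPFC (1.2%). The fit over 24 libraries called 0 for SNI in the male mPFC. The cause was not tested.

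The labels do not say whether libraries with the same replicate number belong together, and correlations over 3 libraries per group cannot settle it. The correlation of same-numbered libraries ran from -0.084 to 0.236 between mPFC and ACC. Between SNI and sham it ran from 0.004 to 0.272 (female mPFC), 0.053 to 0.206 (male mPFC), -0.052 to 0.014 (female ACC) and -0.257 to -0.076 (male ACC), and no pair of groups had all 3 libraries correlate best with their own number. In the mPFC the means for SNI and sham were 0.15 (female) and 0.106 (male), against -0.075 and -0.053 between different numbers. In the ACC they were -0.011 (female) and -0.148 (male), against 0.006 and 0.073. A replicate block gave 8 calls for SNI in the male mPFC and 4 with both sexes of the mPFC, where 4.39% and 1.24% of all genes were called, against 0.494% and 0.00567% without the block. The 8 were Syt6, Cpne9, Cpne5, Rims3, Cplx1, Stxbp3, Unc13a (adjusted p = 0.0765) and Doc2a (0.0555). With a GC-trend offset as well, the block gave 6, among them Cpne7 (adjusted p = 0.0207), and 5 (2.24% and 2.19% of all genes), and 1 each for SNI in the female ACC (0.0959%), for sex in the sham mPFC (1.87%) and for sex in the sham ACC (0.712%).

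Uncalled genes that changed sign and moved by more than their SE were Unc13a after SNI in the female mPFC (0.001 with the GC-trend offset and 0.002 with the block added), Doc2a after SNI in the female mPFC (0.128 and 0.127) and in the male ACC (-0.035 and -0.038), and Unc13a between regions of female sham mice (-0.117 and -0.118).

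Leaving out each library gave 0 to 8 SNI calls for the female mPFC, 0 to 2 for the male mPFC, 0 to 5 for the female ACC, 0 to 7 for the male ACC, 0 to 1 for the mPFC with both sexes and 0 to 8 for the ACC with both. It gave 0 to 12 for sex in the sham mPFC and 0 to 0 in the sham ACC, 0 to 12 and 0 to 7 for sex by SNI (mPFC, ACC), 0 to 12 and 0 to 0 for region by SNI (females, males), and 0 to 1 for sex by region. The highest counts arose without female sham mPFC replicate 3 (8, 12, 12 and 12 calls, and 1 for sex by region), male sham ACC replicate 3 (8 with both sexes, 7 and 7) or female sham ACC replicate 2 (5). Leaving out female SNI mPFC replicate 2 gave 1 call for the mPFC with both sexes, and the male mPFC had 0 calls lacking male sham replicate 3 and 1 lacking male SNI replicate 2. Among uncalled genes, some log2 fold changes changed sign with a library. They ran for Syt2 from -0.622 to 0.074 (female mPFC), -0.223 to 0.378 (male mPFC), -0.182 to 0.146 (male ACC) and -0.323 to 0.047 (mPFC, both sexes), for Syt6 from -0.273 to 0.015 and Syt17 from -0.105 to 0.03 (female mPFC), for Cpne9 from -0.069 to 0.076 (female ACC), for Syt17 from -0.061 to 0.121 (male ACC), for Doc2a from -0.088 to 0.024 (female mPFC) and -0.004 to 0.134 (male ACC), and for Unc13a from -0.06 to 0.107 (regions, female sham). Sign changes of other named genes that stayed within the SE are not listed, so a gene not listed need not be stable in sign.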

Other observations

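The genes that gained a call when 1 library was left out can be set beside the GC content of their exons. Without female sham mPFC replicate 3, SNI was called in the female mPFC as higher for Syt4 (0.30, GC content of its exons 40.7%) and Vamp4 (0.25, GC content of its exons 42.3%), and for Vamp7, whose GC content was not computed. It was called as lower for Cplx2 (-0.23, GC content of its exons 53.7%), Cplx1 (-0.23, GC content of its exons 56.7%), Syt3 (-0.22, GC content of its exons 60.1%), Cpne2 (-0.29, GC content of its exons 55.3%) and Unc13a (-0.19, GC content of its exons 56.3%). Without male sham ACC replicate 3, SNI was called in the male ACC as lower for Stxbp5l (-0.32, GC content of its exons 43.8%), Syt4 (-0.33, GC content of its exons 40.7%), Vamp4 (-0.32, GC content of its exons 42.3%) and Stxbp6 (-0.24, GC content of its exons 43.1%) and for Vamp7, and as higher for Syt3 (0.25, GC content of its exons 60.1%) and Unc13a (0.20, GC content of its exons 56.3%). In both cases the genes of one direction had the lower GC content, and the direction was opposite in the 2 comparisons. The calls were 15.1% and 13.2% of the release genes tested, and 15.9% and 13.5% of all genes were called in the same runs, so the members' shares were near the background. The part of GC content in these calls was not tested.

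Doc2b, which was higher in the mPFC, had point estimates below 0 after SNI in each of the 4 comparisons, -0.11 and -0.24 for the female mPFC and ACC and -0.17 and -0.08 for the male mPFC and ACC, and none was called (adjusted p = 0.552, 0.655, 0.284 and 0.834). It was picked out after its values were seen.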
